A study of Drosophila melanogaster with 8 samples.

Results

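Of the 8386 nuclei that the deposited annotation places in its 3 wing, leg and haltere disc clusters (00, 01 and 05), 1489 carried summed corrected counts of *nub* and *vg* of 1.5 or more and are called nub/vg-rich nuclei here. They were set against the 6229 disc nuclei whose sum was below 0.1, called other disc nuclei, and every one of these was at exactly 0 for both genes. The remaining 668 disc nuclei fell between the limits and entered neither side. The whole series holds 30819 nuclei. They came from 8 samples of *w1118* larvae, a white-eyed laboratory strain, and each sample pooled 16 whole wandering larvae of the third instar, 8 of each sex, 5 days after egg deposition. No treatment or second genotype was included, so both sides of the comparison come from the same larvae and the same libraries, and a disc nucleus is known as one only from its cluster. The libraries are numbered in the barcodes without a link to the sample names and are called replicates 1 to 8.

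Imaginal discs are epithelial sacs in the larva that form the adult appendages. In the wing disc the pouch gives the wing blade, a surrounding ring gives the hinge, and the rest gives the notum, the back of the thorax. *vg* encodes the cofactor that makes the TEAD factor Sd a wing selector, *nub* encodes a POU homeodomain factor of the pouch and distal hinge, and both are textbook markers of the pouch, shared with the haltere disc. *nub* is also known from the developing leg, where it marks rings at the segment borders.

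The members were chosen on measured *nub* and *vg* counts, so their levels are a description. Just inside the upper limit lay nuclei with sums of 1.59, 1.64 and 1.72, and just outside it nuclei with 1.497, 1.490 and 1.00. The median sum among nub/vg-rich nuclei was 3.87, with a median of 2.93 counts of *nub* and 0 of *vg*. *nub* lies at 2L:12587625-12628135 on the plus strand and *vg* at 2R:12884201-12899385 on the plus strand (BDGP6.54). In all, 892 nuclei held *nub* without *vg*, 165 held *vg* without *nub* and 432 held both.

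Nub/vg-rich nuclei made up 17.8% ± 2.36 of disc nuclei (SD, n = 8 libraries). The share was 12.5% in replicate 1 and between 16.9% and 19.9% in the other libraries. The clusters differed widely. The share was 53.7% ± 3.68 within cluster 05, 11.6% ± 1.69 within cluster 00 and 3.78% ± 1.62 within cluster 01. The ranges over libraries did not overlap between any pair of clusters. Cluster 05 supplied 970 of the nub/vg-rich nuclei, or 65.1%, and 10.3% of the other disc nuclei. Cluster 00 supplied 407 and cluster 01 supplied 112, with only 6 to 21 nuclei per library in cluster 01.

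**Figure D1:**
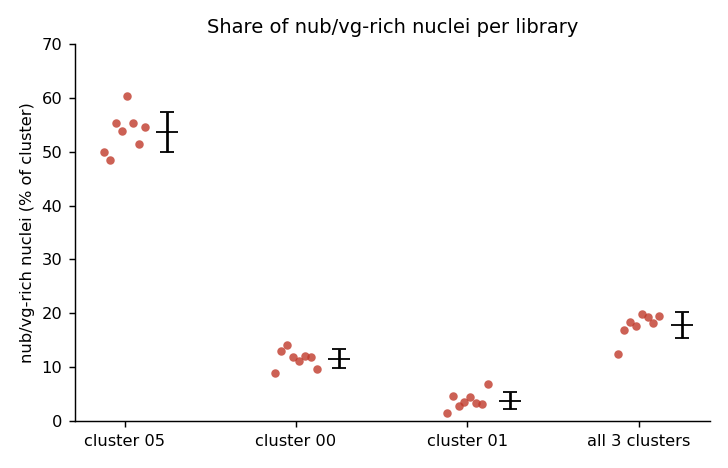
Percentage of the nuclei of each disc cluster, and of all 3 clusters together, that were nub/vg-rich. Points are the 8 libraries and the bar is the mean with its SD, 53.7% ± 3.68 for cluster 05, 11.6% ± 1.69 for cluster 00 and 3.78% ± 1.62 for cluster 01.

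Nuclei were also chosen on 1 marker and the other marker was read, which describes the rule and is no check of the pouch label. In cluster 05, nuclei chosen by *nub* alone held *vg* at 908 ± 141 CPM (corrected counts scaled to a common total of 1e+06), against 435 ± 146 CPM in nuclei of the same cluster without *nub*. *vg* was higher in 8 of 8 libraries (two-sided exact permutation test paired by library, p = 0.00781, the smallest it can give, 0.0469 after adjustment over 6 such tests). Nuclei of cluster 05 chosen by *vg* alone held *nub* at 2039 ± 308 CPM, against 1753 ± 274 CPM in those without *vg*, higher in 6 of 8 libraries (exact permutation p = 0.0547, adjusted 0.141). In cluster 00, *vg* was seen in 6 of 402 nuclei chosen by *nub*, at 29.2 ± 34.3 CPM against 4.84 ± 4.88 CPM (exact permutation p = 0.0703, adjusted 0.141). In cluster 01, nuclei chosen by *nub* held *vg* at 129 ± 203 CPM, against 116 ± 46.5 CPM (exact permutation p = 0.867). In the other direction, *nub* was seen in 4 of 7 nuclei of cluster 00 chosen by *vg*, at 940 ± 897 CPM, against 384 ± 25.8 CPM in those without *vg*, over the 5 libraries that held such nuclei (exact permutation p = 0.25, adjusted 0.375). In cluster 01 it stood at 76.3 ± 119 CPM, against 34.9 ± 12.6 CPM (exact permutation p = 0.375, adjusted 0.45). The mean of the second marker was higher among the chosen nuclei in all 6 comparisons, and 1 of the 6 passed the adjusted test. In cluster 01, however, it was higher in only 3 of 8 libraries for either choice. There the median over libraries was 0 CPM of *vg*, against 111 CPM, and 0 CPM of *nub*, against 32.2 CPM. Both genes belong to the rule, so these tests give no independent support to the pouch name. In cluster 05, nuclei chosen by *nub* were also deeper, with a median of 1147 against 902 counts. The part of depth was not tested.

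Which of the markers was read in a nub/vg-rich nucleus varied by cluster, a description of the same counts that chose the nuclei. In cluster 05, 419 of 970 nuclei held both genes and 80 held *vg* alone. In cluster 00, 396 of 407 nuclei, or 97.3%, held *nub* alone, and in cluster 01, 82 of 112 held *vg* alone. At these depths a missing read does not show that a marker was off. Some genes of ventral appendages were read at high levels on both sides of cluster 00, while others of the leg list, such as *drm* (46.7 and 64.6 CPM), were low. *Sp1*, a zinc finger factor of ventral appendages, averaged 7433 ± 1247 CPM in its nub/vg-rich nuclei and 5955 ± 454 CPM in its other nuclei. *dac*, a nuclear factor of the middle leg, averaged 1470.4 and 1503 CPM, and *Lim1*, a LIM homeodomain factor of leg and antenna, 1918 and 2181 CPM. The nub/vg-rich nuclei of cluster 05 had 128 ± 147 CPM of *Sp1*, 43.9 CPM of *dac* and 31.2 CPM of *Lim1*. Not all leg genes ran this way. *rn*, *al* and *hth* averaged 2210, 130 and 8559 CPM in those nuclei and 129, 101 and 7803 CPM in nub/vg-rich nuclei of cluster 00. The rest of the 13 leg genes tested over all 3 clusters averaged more in cluster 00. These are levels per gene between clusters that the authors built from expression, so no test was made. The name pouch-like is used below for cluster 05 only, and the whole set is called by its rule. The name does not exclude haltere or hinge nuclei. *Ubx*, the selector of the haltere, averaged 2399 ± 1170 CPM in nub/vg-rich nuclei of cluster 05 and 2035 ± 576 CPM in its other nuclei. The hinge list genes *hth* and *zfh2* were also read in these nub/vg-rich nuclei, at 8559 and 2082 CPM, against 16861 and 3958 CPM in the other nuclei.

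Disc nuclei had median depths of 737 to 1204 corrected counts per library, lowest in replicate 1. Nub/vg-rich nuclei were deeper than other disc nuclei, with a median of 1144 against 1037 counts, and this held in 7 of 8 libraries. Within cluster 05 the medians were 1121 and 899. Barcodes found in more than 1 library took up 14 nub/vg-rich nuclei (0.940%) and 45 other disc nuclei (0.722%), against 7.26% of the series. Summed markers of several other tissues lay close together over all 3 clusters. The 5 fat body markers summed to a median of 1061 CPM in nub/vg-rich nuclei and 1060 CPM in other disc nuclei, the 7 neuron markers to 634 and 733 CPM, the 6 gut markers to 354 and 343 CPM, and the 8 myoblast markers to 1413 and 1479 CPM. *Him*, a myoblast repressor, and *repo*, the defining factor of glia, were at 0 in nub/vg-rich nuclei, against means of 1.09 and 0.447 CPM in the more numerous other disc nuclei. Within cluster 05 the neuron markers summed to a median of 297 CPM in nub/vg-rich nuclei and 429 CPM in other nuclei, and within cluster 00 to 1409 and 1046 CPM. Among them *CadN*, a neuronal cadherin, was called at -0.93 (SE 0.26, adjusted p = 0.0221) in cluster 05 and 0.61 (SE 0.15, adjusted p = 0.0171) in cluster 00. *Lcp2*, a larval cuticle protein gene, was lower in cluster 05 by -0.69 (SE 0.18, adjusted p = 0.0131). Their part in the cluster results was not tested. The sums of the trachea, hemocyte and eye lists differed and are given with the genes they touch.

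Counts of each side were summed per library and compared with edgeR with the library as a block, leaving out *nub* and *vg*. Over all 3 clusters, 134 of 3316 genes tested, or 4.04%, were higher in nub/vg-rich nuclei and 232, or 7%, were lower. The median log2 fold change of all genes was 0.02. Since cluster 05 weighs far more on the nub/vg-rich side, this comparison mixes the contrast within clusters with the contrast between them. With each of 1159 nub/vg-rich nuclei matched to a nucleus of the same library, cluster and closest depth, 66 of 1929 genes (3.42%) were higher and 65 (3.37%) lower. Each nucleus was taken once, and cluster 05 held 970 nub/vg-rich but only 640 other nuclei. The nub/vg-rich nuclei left unmatched were thus all from cluster 05. Within cluster 05, 93 of 1502 genes (6.19%) were higher and 79 (5.26%) lower.

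Transcription factors led the genes that were higher. *pdm2*, the POU factor gene next to *nub* (2L:12657165-12686306, plus strand), had 202 CPM in the lowest, 285 CPM in the median and 410 CPM in the highest library of nub/vg-rich nuclei, against 3.65, 5.30 and 8.28 CPM in other disc nuclei. The ranges did not overlap, and the log2 fold change was 5.66 (SE 0.16, adjusted p = 2.44e-15). It was read in 22.8% of nub/vg-rich nuclei, 0.53% of other disc nuclei and 0.364% of hemocyte nuclei, a cell type outside the discs, at median depths of 1144, 1037 and 1194 counts. *nub* and *pdm2* are close paralogs, and a share of reads given to the wrong one was not tested. *Ref2*, an RNA export factor gene, followed with 5.00, but its body (2L:12610517-12646356, minus strand) overlaps that of *nub* on the other strand. How strand was counted is not given in the sources used here, so *Ref2* is no independent gene.

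*kn*, an EBF-family factor that patterns the middle of the wing blade, had 279 CPM in the lowest, 312 CPM in the median and 440 CPM in the highest library of nub/vg-rich nuclei, against 6.87, 13.8 and 23.1 CPM in other disc nuclei. Its log2 fold change was 4.44 (SE 0.15, adjusted p = 7.22e-14). *rn*, a zinc finger factor of the pouch and of the leg tarsus (3R:7272617-7309629, minus strand), had 1131, 1518 and 1709 CPM, against 80.5, 112 and 175 CPM (log2 fold change 3.598, SE 0.09, adjusted p = 1.30e-15). *lncRNA:CR44334*, a long noncoding RNA 5′ of *rn* on the same strand (3R:7312338-7312858), reached 4.13, and reads passing between these neighbours were not tested. *nab*, a cofactor that acts with Rn in the wing, had 138, 198 and 259 CPM in nub/vg-rich nuclei, against 6.02, 13.7 and 21.4 CPM in other disc nuclei (log2 fold change 3.78, SE 0.15). The nub/vg-rich side was the higher one for these genes in 8 of 8 libraries with no overlap. *sd*, the partner of Vg, was detected on both sides and was higher by a log2 fold change of 1.01 (SE 0.05), with 1811 CPM on average in nub/vg-rich nuclei and 894 CPM in other disc nuclei.

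Some genes of secreted and surface proteins were higher as well. Of the 16 tested genes of the adhesion and surface list, 7 were higher, 1 was lower and 8 were not called, beside 4.04% higher and 7% lower of all genes. *NetA* and *NetB* encode the netrins, secreted guidance cues, and lie next to each other on the X chromosome. *NetA* had 70.3 CPM in the lowest, 169 CPM in the median and 240 CPM in the highest library of nub/vg-rich nuclei, against 2.96, 21.2 and 35.2 CPM in other disc nuclei (log2 fold change 2.89, SE 0.24). *NetB* had 630, 938 and 1003 CPM, against 249, 303 and 405 CPM (log2 fold change 1.46, SE 0.10). Both netrin genes were separated between the sides without overlap. *if*, the integrin alpha chain of the basal side of the future ventral wing blade, had a log2 fold change of 1.99 (SE 0.15). *wb*, a laminin alpha chain that integrins bind, had one of 1.04 (SE 0.13), though its library ranges overlapped. *NetB* and *wb* were picked after their values were seen.

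The other genes among the 15 with the highest fold changes were *tey*, *CG17278*, *CG32373*, *lncRNA:CR44811*, *vvl*, *trh* and *CG9008*, with log2 fold changes of 1.81 to 2.74. *vvl*, a POU factor needed for veins, had 1340 CPM on average in nub/vg-rich nuclei and 296 CPM in other disc nuclei. *trh*, a bHLH-PAS factor that specifies tracheal cells, averaged 186 ± 30.8 CPM in nub/vg-rich nuclei and 52.1 ± 6.27 CPM in other disc nuclei (log2 fold change 1.86, SE 0.11). *btl*, the FGF receptor that defines tracheal cells, stood at 3.35 ± 3.61 and 5.21 ± 3.58 CPM, so the sum of the 2 trachea markers, 159 to 248 CPM against 49.5 to 69.1 CPM, moved through *trh* alone. The sum of the 6 hemocyte markers, 156 to 234 CPM against 77.6 to 141 CPM, moved with *Ppn*, a matrix proteoglycan-like protein, at 181 ± 23.4 and 78.5 ± 8.56 CPM. *Hml*, a defining hemocyte gene, stood at 4.63 and 4.59 CPM.

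**Figure D2:**
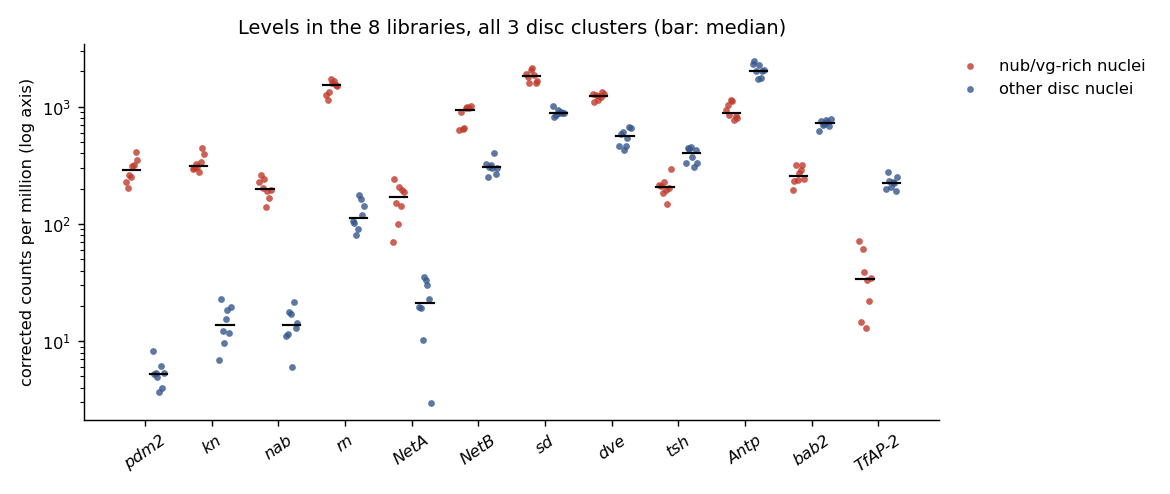
CPM (log axis) of 12 genes in nub/vg-rich (red) and other disc nuclei (blue), over all 3 disc clusters. Points are the 8 libraries and bars their medians. *pdm2* lies between 202 and 410 CPM in nub/vg-rich nuclei and at most at 8.28 CPM in other disc nuclei, while *Antp*, *bab2*, *tsh* and *TfAP-2* lie lower in nub/vg-rich nuclei.

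Factors known from head, antenna, leg and notum were among the genes with the lowest fold changes. *Sox21b*, a SOX factor, had 0 to 13.6 CPM over the libraries of nub/vg-rich nuclei, against 45.7 to 84.5 CPM in other disc nuclei. *Awh*, a LIM homeodomain factor, had 0, 5.12 and 11.0 CPM in the lowest, median and highest library, against 64.5, 82.9 and 111 CPM (log2 fold change -3.76, SE 0.26). *oc*, the Otx factor of the head, had 0, 11.2 and 52.2 CPM, against 136, 155 and 173 CPM (-3.37, SE 0.32). *TfAP-2*, which is needed for leg joints, had 12.8, 33.8 and 71.4 CPM, against 189, 223 and 277 CPM (-2.71, SE 0.20). *ss*, the bHLH-PAS factor of the antenna and the distal leg, had 7.68, 51.3 and 97.2 CPM, against 271, 292 and 438 CPM (-2.53, SE 0.15). None of these ranges overlapped. The rest of the 15 lowest were *dar1*, *lncRNA:CR45232*, *Dfd*, *Dh31-R*, *toy*, *Ance*, *Cpr51A*, *opa*, *tup* and *bab1*, between -2.12 and -2.77. *toy*, a Pax6 factor of the eye, was 1 of 3 eye genes tested, all lower. The 6 genes of the eye list summed to 40.1 to 173 CPM in nub/vg-rich nuclei and 206 to 286 CPM in other disc nuclei, though *gl*, a zinc finger factor of photoreceptors, stood at 3.67 ± 4.97 and 1.96 ± 1.82 CPM and *lz*, a Runx factor, at 11.2 ± 25.9 and 13.7 ± 10.8 CPM. The part of eye-antennal nuclei in the other disc nuclei was not tested.

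By list, the wing pouch and wing fate genes were mostly higher and the notum and leg genes mostly lower. Of 14 pouch genes tested (*nub* and *vg* left out), 10 were higher and 1 lower, with a median log2 fold change of 1.11 beside 0.02 for all genes. Of 9 notum genes, 7 were lower (median -0.64), among them *tup*, a LIM homeodomain factor of the notum, at -2.14, and *pnr*, the GATA factor of the dorsal midline, at -1.65. Of 13 leg genes, 9 were lower and 1, *rn*, higher (median -0.63). The 6 Hox genes tested had 5 lower, with *Antp*, the Hox gene of the leg-bearing thorax, at -1.15 and *Scr*, of the labium and first leg, at -1.33. In the matched nuclei *Antp* stood at -0.30 (adjusted p = 0.149) and *Scr* at -0.41 (adjusted p = 0.505), and in cluster 00 *Antp* was higher by 0.41 (SE 0.08, adjusted p = 0.00414). The exception was *Ubx*, the selector of the haltere, at 0.51 (SE 0.10, adjusted p = 0.00112). It was higher in 7 of 8 libraries with overlapping ranges of 1507 to 4153 CPM in nub/vg-rich nuclei and 1385 to 2018 CPM in other disc nuclei, and its adjusted p was 0.233 in the matched nuclei. The 9 hinge genes were split, with 1 higher, 2 lower and a median of -0.03.

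In the matched nuclei the clusters weigh equally on both sides, and the counts were other ones. There 5 of 12 pouch genes were higher and 1 lower (median 0.34), 6 of 8 hinge genes lower and 1 higher (median -0.56), 1 of 5 notum genes lower and 4 of 12 leg genes lower with 1 higher. Of the 5 Hox genes tested there by edgeR, 0 were called and 2 had an unadjusted p below 0.05.

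Within cluster 05, the pouch genes tested were mostly higher and the hinge genes tested lower. Of 13 pouch genes tested, 9 were higher and 1, *bi*, was lower (median 0.89, beside -0.01 for all genes). All 7 hinge genes tested, of 11 on the list, were lower (median -1.55), and 4 of 5 notum genes were lower (median -0.61). Hinge genes below the filter did not all follow. *exd* averaged 70.6 CPM in nub/vg-rich nuclei and 72.7 CPM in other nuclei. *Doc2* averaged 47.3 and 50.3 CPM and was higher in 4 of 8 libraries. The list sizes differ from those above because fewer genes passed the filter on low counts in 1 cluster.

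In the pouch-like nuclei of cluster 05, *rn* had 1868 to 2586 CPM, against 211 to 510 CPM in other nuclei of the cluster (log2 fold change 2.65, SE 0.13). *Dll*, the homeodomain factor of distal appendages that also marks the wing margin, had 308 to 504 CPM, against 9.34 to 110 CPM (3.09, SE 0.23). *dve*, a homeodomain factor of the wing, had 1508 to 1886 CPM, against 237 to 610 CPM (2.20, SE 0.11). *fj*, the Golgi kinase that tunes the binding of Fat to Dachsous and is graded across the wing, had 275 to 609 CPM, against 65.2 to 181 CPM (1.69, SE 0.19). *Bx*, a LIM-only protein that restrains Apterous, had 1862 to 2528 CPM, against 725 to 1251 CPM (1.05, SE 0.09). The ranges of these genes did not overlap. *nab* (2.74), *kn* (2.15), *NetA* (3.53), *NetB* (1.81), *wb* (1.66) and *trh* (2.45) were also higher here.

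The hinge genes tested ran the other way. *tsh*, a zinc finger factor of the hinge and notum, had 38.8 to 109 CPM in pouch-like nuclei and 288 to 586 CPM in other nuclei of cluster 05 (log2 fold change -2.66, SE 0.19). *grn*, a GATA factor, had 242 to 1097 CPM, against 1470 to 3495 CPM (-2.17, SE 0.15). *Sox15*, a hinge SOX factor, had 52.7 to 222 CPM, against 263 to 691 CPM (-1.97, SE 0.15). *ds*, which encodes the cadherin Dachsous, had 1437 to 2359 CPM, against 3144 to 5593 CPM (-1.18, SE 0.07). *hth*, the homeodomain factor of proximal fates, had 7177 to 10080 CPM, against 12920 to 21630 CPM (-1.005, SE 0.09), and *zfh2*, a zinc finger factor of the hinge, had a log2 fold change of -0.97 (SE 0.10). None of these ranges overlapped, and each gene was lower in 8 of 8 libraries. *Dh31-R*, which encodes a receptor for the diuretic hormone DH31, had the lowest log2 fold change of cluster 05, with 0 to 16.9 CPM in pouch-like nuclei and 207 to 593 CPM in other nuclei (-5.96, SE 0.30).

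**Figure D3:**
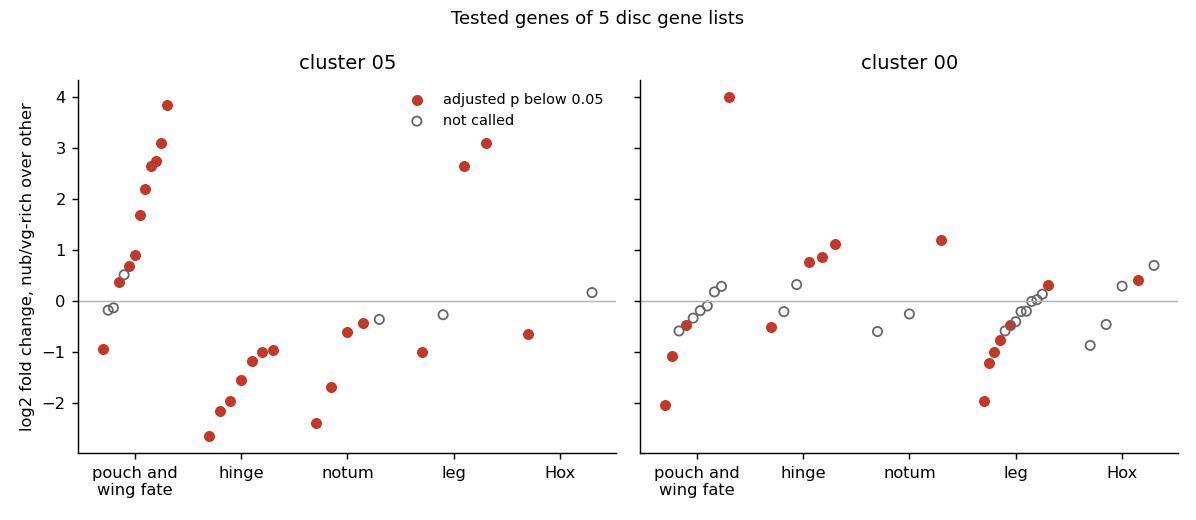
Log2 fold changes of nub/vg-rich over other nuclei for the tested genes of 5 disc lists, within cluster 05 (left) and cluster 00 (right). Filled points passed an adjusted p of 0.05 and open points did not. In cluster 05 the 7 hinge genes lie between -2.66 and -0.97 and the pouch genes reach 3.84. In cluster 00 *pdm2* was the only pouch gene called as higher, beside 3 hinge genes and *ush*, *Sp1* and *Antp* of the notum, leg and Hox lists.

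In cluster 00, 34 of 2040 genes (1.67%) were higher in nub/vg-rich nuclei and 49 (2.4%) lower. Of 10 pouch genes tested only *pdm2* was higher, with 68.9 to 128 CPM, against 0 to 13.1 CPM in other nuclei of the cluster (log2 fold change 4.004, SE 0.32). Of the rest, *fj*, *dve* and *Dll* were lower. *rn* had 129 ± 109 CPM in nub/vg-rich nuclei and 177 ± 65.5 CPM in other nuclei (-0.59, adjusted p = 0.616). The list of the dorsal-ventral boundary and Notch had 4 of 14 genes higher and 3 lower. *Ser*, a Notch ligand gene, had 1492 to 2521 CPM, against 567 to 841 CPM (1.504, SE 0.09, adjusted p = 8.85e-10). *Dl*, the other ligand gene, had 1591 to 2326 CPM, against 1123 to 1278 CPM (0.72, SE 0.07). Neither gene overlapped between the sides. The other genes higher were *E(spl)m8-HLH* (1.07) and *E(spl)m7-HLH* (0.76), Notch target repressors of 1 gene complex, and the genes lower were *Bx* (-1.19), *ct* (-0.92), a homeodomain factor of the wing margin, and *fng* (-0.44), a glycosyltransferase that modifies Notch. Of 6 hinge genes 3 were higher and 1 lower, *grn* with 4328 to 7829 CPM in nub/vg-rich nuclei and 2248 to 4470.5 CPM in other nuclei (1.12, SE 0.11), *tsh* at 0.85 (SE 0.17) and *ds* at 0.76 (SE 0.08). *zfh2* was lower by -0.52 (SE 0.11, adjusted p = 0.00593), in 8 of 8 libraries. *Sox15*, below the filter in cluster 00 alone, averaged 4.52 CPM in nub/vg-rich nuclei and 36.2 CPM in other nuclei of cluster 00. It was lower in 7 of 8 libraries and higher in 1. A joint fit of both clusters, which it entered through cluster 05, called it at -2.24 in cluster 00 (SE 0.61, adjusted p = 0.0235). No weight is given to that call. Its nub/vg-rich values were near the floor, with 0 to 36.1 CPM over the libraries and an SD of 12.8 CPM. *trh* was higher by 1.47 (SE 0.16). Of 3 notum genes *ush* was higher by 1.18 (SE 0.15), and the others were not called. Among leg genes, 5 of 13 were lower, including *bab1* at -1.96 and *bab2* at -1.22, BTB factors of the tarsus, and *Sp1* was higher by 0.31 (SE 0.08). *TfAP-2* had 43.6 to 173 CPM, against 422 to 657 CPM (-2.23, SE 0.20). *bnl*, an FGF ligand gene named after its values were seen, was higher by 1.70 (SE 0.39, adjusted p = 0.0112), on widely spread values of 0 to 506 CPM in nub/vg-rich nuclei and 15.2 to 146 CPM in other nuclei.

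The 2 clusters were then compared directly, by a term for the difference of their effects in a joint fit over 4 sums per library, a comparison added after the separate results were seen. The effect differed for 125 of 1761 genes (7.1%), larger in cluster 05 for 66 (3.75%) and smaller for 59 (3.35%). Of the genes called in both clusters, 23 (1.31% of those tested) had the same sign and 17 (0.965%) opposite signs. *fj* differed most among the pouch genes, by 3.73 (cluster 05 minus cluster 00, SE 0.37, adjusted p = 4.96e-09), followed by *Dll* at 3.58 (SE 0.31), *rn* at 3.25 (SE 0.40) and *dve* at 3.21 (SE 0.35). *Bx* (2.24), *nab* (2.29), *nkd* (0.89) and *sd* (0.61) differed in the same direction. *tsh* differed by -3.52 (SE 0.28), *grn* by -3.22 (SE 0.24), *Dr* by -2.89 (SE 0.54), *ush* by -2.86 (SE 0.27) and *ds* by -1.95 (SE 0.10). *Ser* (-1.28), *Antp* (-1.08), *hth* (-0.80) and *bi* (-0.78) also had smaller values in cluster 05. *nkd* encodes a feedback inhibitor of Wnt signalling, *Dr* a homeodomain factor and *ush* a cofactor of Pnr.

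A smaller group was higher in both clusters. *pdm2* differed by -0.10 between the clusters (SE 0.22, adjusted p = 0.912), *NetB* by 0.67 (SE 0.33, adjusted p = 0.298), *trh* by 0.97 (SE 0.36, adjusted p = 0.109) and *Dl* by -0.33 (SE 0.12, adjusted p = 0.0949). The differences of these genes did not pass the test, which does not show that the effects were equal.

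**Figure D4:**
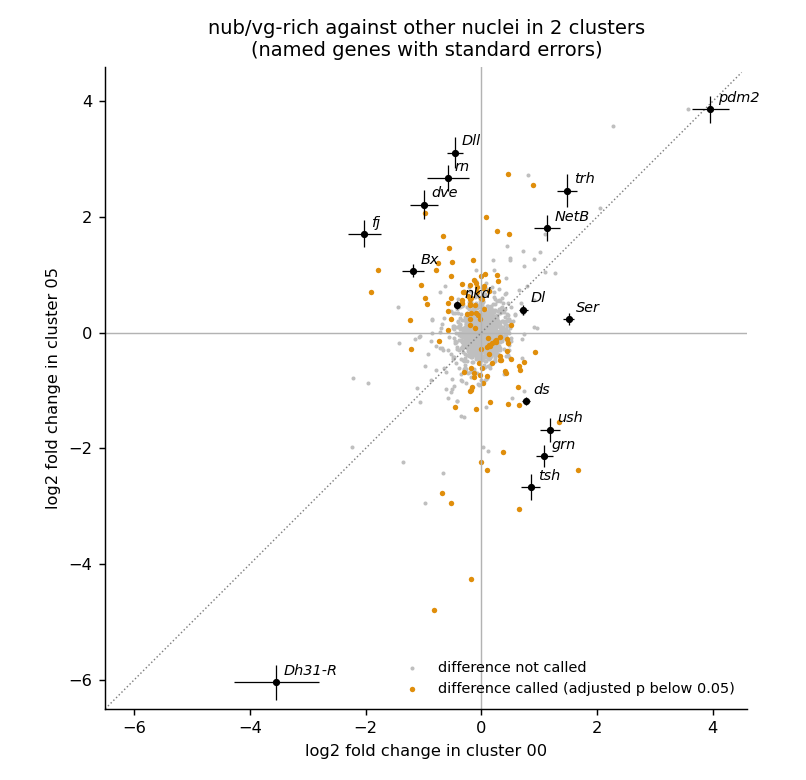
Log2 fold change of nub/vg-rich over other nuclei in cluster 05 (vertical) and in cluster 00 (horizontal) for 1761 genes of the joint fit. Orange points are the 125 genes whose 2 effects differed, black points are named genes with standard errors, and the dotted line marks equal effects. *pdm2* lies near the line, *Dll*, *rn*, *dve* and *fj* lie upper left and *tsh*, *grn*, *ush* and *ds* lower right.

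**Figure D5:**
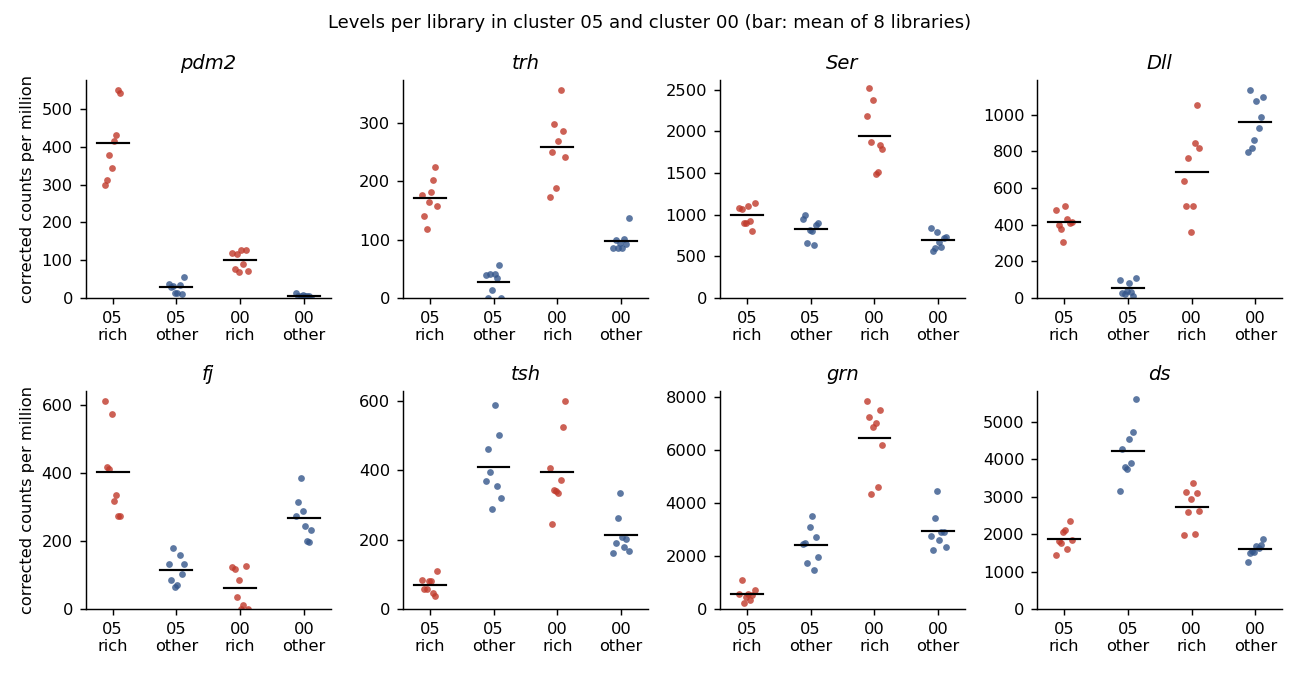
CPM of 8 genes in nub/vg-rich (red) and other nuclei (blue) of cluster 05 and of cluster 00. Points are the 8 libraries and bars their means. *pdm2* and *trh* are higher in nub/vg-rich nuclei of both clusters, while *fj*, *tsh*, *grn* and *ds* change sides between them.

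In cluster 01 the 112 nub/vg-rich nuclei gave sums from 6 to 21 nuclei per library. Of 1702 genes tested, 34 (2%) were higher and 64 (3.76%) lower. Here 4 of 7 hinge genes were higher (median 0.86, beside -0.06 for all genes), with *Sox15* at 1.63 (SE 0.33) and *zfh2* at 1.23 (SE 0.15). *ap*, the dorsal selector of the wing disc, averaged 1467 CPM in nub/vg-rich nuclei and 513 CPM in other nuclei (1.43, SE 0.21), and *sd* 2408 and 892 CPM (1.34, SE 0.15). *salm* (1.35) and *salr* (1.56), a pair of paralogous zinc finger genes, were higher, though reads shared between them could be split. Leg genes were lower in 4 of 7 cases, with *Lim1* at -3.50 (SE 0.52) and *bab2* at -3.05 (SE 0.39), and *Antp* was lower by -1.64 (SE 0.21). *Sp1* ran the other way at 1.76 (SE 0.45, adjusted p = 0.016), on 464 ± 513 CPM in nub/vg-rich nuclei and 120 ± 96.8 CPM in other nuclei. Of 9 notum genes 3 were lower and 2 higher, *ara* at 0.94 and *caup* at 0.80, paralogous homeodomain genes whose pooled values were -0.36 and -0.49.

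Several genes of the pooled comparison took another sign inside the clusters. *bi*, the T-box gene downstream of Dpp, had 5996 to 8229 CPM in nub/vg-rich nuclei and 3545 to 5182 CPM in other disc nuclei (log2 fold change 0.67, SE 0.04). Within cluster 05 it had 7465 to 10975 CPM in pouch-like nuclei and 13811 to 19661 CPM in other nuclei (-0.94, SE 0.05), with no overlap in either comparison. *ap* stood at 1.04 in the pooled comparison and -0.40 in cluster 05 (SE 0.11, adjusted p = 0.0228). *salm* and *salr* stood at 1.08 and 1.15 in the pooled comparison, and at -0.14 and -0.19 in cluster 05 without passing the test. *ab*, a zinc finger gene of the pouch list, was called at -0.41 in the pooled comparison and 0.37 in cluster 05, and *knrl*, a nuclear receptor of the second vein, at -0.69 and 1.27. *Dll*, *fj* and *grn* were near 0 in the pooled comparison (0.15, -0.01 and -0.03, none called) and were called with opposite signs in the 2 clusters.

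The other lists are given for the pooled comparison, in which 4.04% of all genes were higher and 7% lower. Of 6 compartment genes 3 were higher and 2 lower, with *hh*, the posterior ligand, at 0.45 (SE 0.06) and *ci*, its anterior effector, at -0.39 (SE 0.08). Both had overlapping library ranges, and without the library block *ci* had an adjusted p of 0.242. Of 16 Wnt genes 6 were higher and 1 lower, with *nkd* at 0.44 (SE 0.04). Of 13 Dpp genes, 3 were higher (*bi*, *salm* and *salr*). Of 14 genes of the dorsal-ventral boundary and Notch, 6 were higher and 1 lower, with *Bx* at 1.497 (SE 0.07) and *Ser* at 0.76 (SE 0.06). In the matched nuclei *hh* stood at 0.50 (adjusted p = 0.0322), *ci* at -0.09 (adjusted p = 0.735) and *nkd* at 0.15 (adjusted p = 0.158). The 16 adhesion and surface genes had 7 higher and 1 lower, and the 10 vein and sensory organ genes had 2 higher and 5 lower. The Hedgehog list had 1 of 6 higher and 2 lower, the EGF receptor list 1 of 11 higher and 2 lower, the JAK-STAT list 2 of 5 lower and the Hippo and Fat list 2 of 13 lower. The ecdysone list had 1 of 12 higher, *ImpE2*, an ecdysone-induced surface protein, at 0.84 (SE 0.13), against 0.29 in the matched nuclei (adjusted p = 0.536). Several of these shares, such as that of the Hippo and Fat list, lie near those of all genes. No cell cycle gene of 11 was called in either direction, with log2 fold changes from -0.15 to 0.34. By edgeR 0 of the 11 had an unadjusted p below 0.05, and by DESeq2 likewise 0. The 2 *roX* RNAs of male dosage compensation differed by -0.01 and 0.00 between the sides. In the matched nuclei, where 3.42% of all genes were higher and 3.37% lower, the list counts were other ones. There 3 of 7 vein and sensory organ genes were higher and 0 lower, and 1 of 13 Wnt genes was higher and 1 lower. Of 12 dorsal-ventral and Notch genes 4 were higher and 0 lower, and of 16 adhesion and surface genes 4 and 0. Of 10 Dpp genes 2 were higher and 1 lower.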

How the data were processed

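Single-nucleus RNA-seq was made from 8 pools of whole larvae. The authors counted UMIs with Cell Ranger 7.1.0 (build BDGP6 per the labels), with 10000 barcodes set per library, and subtracted ambient RNA with DecontX, so the deposited values are expected counts that need not be whole. They removed nuclei under 50 genes or 80 UMIs and called doublets at an expected 5% (none were called again here), and clustered Harmony-corrected components at resolution 1. Cluster names are theirs, and both deposited tables were used.

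Counts were summed per library and side, rounded to whole numbers and tested with edgeR 4.0.16 in R 4.3.3 (quasi-likelihood, TMM, its filter on low counts, library as block). P-values were adjusted by Benjamini-Hochberg over all genes tested, and a gene was called at an adjusted p below 0.05. CPM are computed from the sums. Both sums of a library come from the same larvae, so the number pairs them: deviations from the side means correlated at 0.31 to 0.39 within each library, above every other pairing (at most 0.27). Sums held 113445 to 279401 counts on the nub/vg-rich side and 525327 to 1057441 on the other. Nothing says more of the pools than that they are separate samples, so p-values measure the spread between libraries, and nuclei of 1 library are not replicates. The test was tried on simulated data first.

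Genes named are all tested members of the pouch, hinge, notum, leg and Hox lists, up to 4 of each other list by adjusted p, and the 15 highest and 15 lowest called genes with a mean of 20 CPM on the higher side and 1 direction in all libraries. Others are marked where they appear. The members and lists were chosen with earlier results of these data known. Positions are from BDGP6.54 (Ensembl release 115). Python 3.11.15 and DESeq2 1.42.0 served for tables and an alternative. Other limits, single markers, single clusters, matched nuclei, other size factors, no filter and libraries left out in turn were tried.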

Additional observations from a re-analysis of the deposited data

Results flagged for a closer look

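A library far from the other 7 was found for 7 of the 63 results checked, and chance alone gives about 1 in 20. The share of nub/vg-rich nuclei was 12.5% in replicate 1, and the mean share without it was 18.6%. Replicate 1 also had the shallowest disc nuclei, with a median of 737 counts, against 1005 to 1204 in the other libraries. The log2 ratios of nub/vg-rich over other CPM (with 1 CPM added to each) that stood apart were 6.49 for *Ref2* and -6.01 for *Cpr51A*, a cuticle protein gene, in replicate 4, -4.99 for *ss* and -1.54 for *caup* in replicate 1 and -4.00 for *opa*, a zinc finger gene, in replicate 5. *Antp* stood apart in replicate 4 by its smaller ratio of -0.57. No cause of these was tested.

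The effect differed between cluster 05 and cluster 00, by the test of the difference, for every gene that follows. The difference (cluster 05 minus cluster 00) was 3.73 for *fj*, 3.58 for *Dll*, 3.25 for *rn*, 3.21 for *dve*, 2.29 for *nab*, 2.24 for *Bx*, 0.89 for *nkd* and 0.61 for *sd*. It was -3.52 for *tsh*, -3.22 for *grn*, -2.89 for *Dr*, -2.86 for *ush*, -1.95 for *ds*, -1.28 for *Ser*, -1.08 for *Antp*, -0.80 for *hth* and -0.78 for *bi*. Of these genes, *nab* and *Dr* did not pass the filter within cluster 00.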

How the results depend on the processing

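The pooled counts of 134 genes higher and 232 lower were 97 and 183 with DESeq2, 138 and 232 with RLE size factors, and 95 and 169 without the library as a block, where the pairing was dropped. Leaving out 1 library gave 111 to 137 genes higher and 220 to 234 lower, and shares of 17.5% to 18.6%. In cluster 05 it gave 79 to 93 and 59 to 82, and in cluster 00 25 to 37 and 40 to 50. Counts moved with matched nuclei (66 higher, 65 lower), cluster 00 alone (34, 49), cluster 01 alone (34, 64), cluster 05 alone (79 lower), a minimum change of 0.54 on the log2 scale (63, 140) and no filter on low counts (445 lower). The minimum change counts only the larger of the same calls, and the others test fewer nuclei, fewer genes or more genes. A limit of 3 gave a share of 9.38%.

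Among the genes named, directions turned against a called pooled value, or were called against an uncalled one, in several cases. The list that follows does not hold all of them. In matched nuclei, the log2 fold change was 0.39 for *grn*, -0.62 for *zfh2*, -0.28 for *ds*, -0.73 for *bi*, -0.040 for *salr*, -0.078 for *ap*, 0.17 for *ab*, 0.69 for *knrl* and 0.073 for *disco-r*, a leg zinc finger gene. In cluster 05 it was 1.69 for *fj*, -0.97 for *zfh2*, -1.18 for *ds*, -0.94 for *bi*, -0.14 for *salm*, -0.19 for *salr*, -0.40 for *ap*, 0.37 for *ab*, 0.33 for *ct* and 1.27 for *knrl*. In cluster 00 it was -0.59 for *rn*, -0.17 for *vvl*, -1.08 for *dve*, -0.48 for *Dll*, -1.19 for *Bx*, -0.10 for *bs*, 0.41 for *Antp*, 0.85 for *tsh*, 1.12 for *grn*, -0.52 for *zfh2*, 1.18 for *ush*, -0.19 for *bi*, -0.43 for *nkd*, 1.70 for *bnl*, 0.31 for *Sp1*, 0.17 for *ab*, 0.61 for *CadN* and 0.13 for *disco-r*. In cluster 01 it was -0.24 for *dve*, 0.75 for *Dh31-R*, 0.21 for *tsh*, 0.90 for *grn*, 1.63 for *Sox15*, -0.33 for *bi*, 0.037 for *ci*, 0.94 for *ara*, 0.80 for *caup* and 1.76 for *Sp1*. With nuclei chosen by *vg* alone it was 1.29 for *fj*, 0.38 for *ara* and 0.74 for *Sox15*. Further cases among the 5 disc lists were *dac* at 0.86 in cluster 01 and *Abd-B* at 0.69, *disco* at 0.02 and *al* at -0.77 in cluster 00. In cluster 05 they included *klu* at 0.69 and *mirr* at -0.44. Beyond the unequal weight of the clusters on the 2 sides, the cause was not tested. Cluster 01 rests on 112 nub/vg-rich nuclei, and genes below the filter were not tested. The limit of exactly 0 for other disc nuclei chose the same nuclei.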

Other observations

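Nuclei past the same limit were also found outside the disc clusters, 276 of 22433 (1.23%). The share was highest in the neuron cluster 20, with 55 of 512 nuclei (10.7%), of which 39 held *nub* and 21 held *vg*. In the myoblast cluster 12, 67 of 967 nuclei (6.93%) passed the limit, 58 with *vg* and 8 with *nub* at that level. In the neuron cluster 10 it was 51 of 1089 (4.68%), 44 with *vg* and 9 with *nub* at that level. *vg* is known from the precursors of the flight muscles. The eye disc cluster 14 had 8 of 862 nuclei past the limit (0.928%), and 6 clusters had none.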
